A study of Mus musculus with 12 samples.

Results

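Genomic imprinting leaves a gene active mainly or solely on the copy inherited from 1 parent. The copies differ in DNA methylation that is set in the germ line. This mark is kept through cell division by methyltransferases, zinc finger proteins and their partners. Imprinted genes lie in clusters in which a long noncoding RNA or an insulator can act on several neighbours, and many of them set growth of the embryo, placenta and brain. In neural precursors they include regulators of the cell cycle, of insulin-like growth factor signalling and of neuronal differentiation.

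A list of 39 imprinted genes was followed across the 6 groups of a mouse expression array series. Of these, 36 had at least 1 probe set assigned to their symbol alone. Where a gene had several, the one with the strongest average signal over the 12 arrays stood for it. H19 was on 1 probe set shared with Mir675 and was not analysed here, nor were Rtl1 and Dio3. The values are log2 signals, so a difference of 1 is a 2-fold change in signal. A probe set was tested where its mean lay above 5.183, the median of all values, in at least 1 group. This kept 27 of the 36 genes, among 12835 genes tested in all. Signals below 5.183 may be background, and a fold change to or from such a level may be understated. The arrays do not tell the parental copies apart, so every value is the sum over both.

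All 12 RNA samples came from p53-/- cells of the BL6 strain, started from the telencephalon of embryonic day 14.5 brain. NSC are neural stem cells grown as floating spheres without serum. AST are astrocytes induced from NSC cultures by 10% fetal calf serum over 3 weeks. OPC are oligodendrocyte precursor cells induced with PDGFAA, bFGF and 0.25% serum and then purified by immunopanning. NSCL61, OPCL61 and ASTL61 are stable lines made from these 3 parents by electroporating pCMS-EGFP-HRasL61, which carries an oncogenic HRas and a fluorescent protein, together with pBabe-neo. Selection was with neomycin at 0.5 mg/ml, and GFP-positive cells were taken by flow cytometry. The parents are not said to have passed through those steps, so the oncogene and the steps cannot be told apart. The p53 deficiency is shared by every group. Each group holds 2 arrays, and nothing in the labels says whether these were separate cultures, so p-values measure the spread between arrays, which may be technical. In these bulk samples a smaller number of cells of a type and less RNA per cell cannot be told apart.

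Array medians lay between 5.16 and 5.21. The SD over genes of the difference between the arrays of a group ran from 0.193 in NSCL61 to 0.416 in NSC, and the number of arrays limits the precision. The control probe set for the 5′ part of 18S ribosomal RNA read 7.91 and 12.13 in NSC, 8.06 and 11.67 in NSCL61 and 8.71 and 12.59 in OPC, and between 8.42 and 10.29 in the other groups. Its part in the results was not tested. The labelled cell types were set against marker lists. In OPC, 10 of 10 OPC markers had a group mean above 5.183, against 5 in NSC and 4 in AST. In NSC only 4 of 9 stem cell markers did, against 6 in OPC. Sox2, a stem cell transcription factor, averaged 5.60 ± 1.69 (SD, n = 2) in NSC against 11.75 ± 0.13 in NSCL61. In the same NSC arrays 8 of 9 fibroblast and pericyte markers lay above 5.183. Gfap, the defining astrocyte filament, was 5.57 ± 0.22 in AST. Of 10 astrocyte markers, 7 had a group mean above 5.183 in AST, 8 in OPC and 5 in NSC. The groups are therefore called by their labels, and these marker values are given again where they move with an imprinted gene.

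The promoters of 5 genes on which the results turn are shown here for reference. Each runs from 250 bases before to 50 bases after an annotated transcription start in RefSeq, mouse build GRCm38.p6. Ndn, Nap1l5 and Nnat had the largest falls in the OPC line, Grb10 had the largest deficit in OPC against NSC, and Peg3 moved in opposite directions in the NSC and OPC lines. Each is printed 5′ to 3′ on the strand of its gene, with CpG dinucleotides in capitals. Imprinting methylation lies on CpG, and whether it lies on any of those printed was not measured.
Ndn, chr7:62348027-62348326, plus strand: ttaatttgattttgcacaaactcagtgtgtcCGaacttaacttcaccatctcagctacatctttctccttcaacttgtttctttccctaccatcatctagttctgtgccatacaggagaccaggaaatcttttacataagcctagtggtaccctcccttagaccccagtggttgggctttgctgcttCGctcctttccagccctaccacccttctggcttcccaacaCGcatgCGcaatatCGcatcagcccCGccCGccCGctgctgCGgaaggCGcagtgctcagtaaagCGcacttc
Nap1l5, chr6:58907077-58907376, minus strand: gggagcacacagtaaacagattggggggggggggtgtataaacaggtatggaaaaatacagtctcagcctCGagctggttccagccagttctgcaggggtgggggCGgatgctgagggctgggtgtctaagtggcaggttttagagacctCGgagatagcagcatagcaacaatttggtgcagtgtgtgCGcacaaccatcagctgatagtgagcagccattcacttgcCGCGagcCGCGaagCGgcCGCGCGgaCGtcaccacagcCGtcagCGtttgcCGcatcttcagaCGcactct
Nnat, chr2:157559828-157560127, plus strand: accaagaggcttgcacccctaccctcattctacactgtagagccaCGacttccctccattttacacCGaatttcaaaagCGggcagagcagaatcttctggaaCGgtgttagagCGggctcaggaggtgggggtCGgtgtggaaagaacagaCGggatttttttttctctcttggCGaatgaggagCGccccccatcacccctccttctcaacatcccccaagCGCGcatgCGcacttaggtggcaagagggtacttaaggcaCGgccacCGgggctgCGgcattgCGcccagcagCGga
Peg3, chr7:6730370-6730669, minus strand: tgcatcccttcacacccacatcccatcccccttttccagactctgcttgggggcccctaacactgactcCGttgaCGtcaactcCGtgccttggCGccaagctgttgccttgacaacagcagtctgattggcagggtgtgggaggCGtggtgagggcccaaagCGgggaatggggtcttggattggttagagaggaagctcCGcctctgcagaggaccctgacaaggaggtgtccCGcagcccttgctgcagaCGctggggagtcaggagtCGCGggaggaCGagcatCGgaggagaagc
Grb10, chr11:12037371-12037670, minus strand: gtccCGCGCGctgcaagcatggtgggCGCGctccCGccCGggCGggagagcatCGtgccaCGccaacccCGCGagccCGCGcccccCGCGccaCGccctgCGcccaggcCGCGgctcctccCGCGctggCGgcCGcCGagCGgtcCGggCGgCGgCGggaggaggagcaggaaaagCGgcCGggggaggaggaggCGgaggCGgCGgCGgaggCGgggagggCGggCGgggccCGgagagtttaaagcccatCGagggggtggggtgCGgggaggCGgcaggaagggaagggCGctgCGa

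These windows held 11 CpG in Ndn, 17 in Nap1l5, 17 in Nnat, 13 in Peg3 and 45 in Grb10. A second Grb10 window, at another annotated start, held 9 CpG, and the one with more CpG was printed. RefSeq windows were found for 33 of the 39 genes, 50 windows in all, and their median was 13 CpG against 7 over all 32851 windows of the same length. For the listed genes, though not for the set of all windows, the windows of a single chromosome were left out. Sgce, Rtl1, Peg10, H19, Trappc9 and Impact had none among those used, which does not show that RefSeq lacks them. The letters TGCCGC, a core bound by the imprint-protecting protein ZFP57, occurred on either strand in 11 of the 50 windows (22%), against 11.6% of all windows. They were found in the printed windows of Nap1l5, Nnat and Grb10 and not in those of Ndn and Peg3, nor in the second Grb10 window. The run GGGGGCCCC, a core bound by PLAGL1, occurred in 4 of the 50 windows (8%) against 0.405% of all. One of these is the Peg3 window and another is that of Usp29, and these are not independent, since the windows share 263 bases on opposite strands. The run CCGCG was in 21 windows (42%) against 30.6% of all. Windows of the same gene can overlap, so windows are not independent. By gene, 10 of 33 held TGCCGC, 4 held GGGGGCCCC and 16 held CCGCG. No share by gene was worked out over all genes, so these counts cannot be set against the shares of windows. TGCCGC and CCGCG each contain CpG, of which the listed windows held more by median than all windows. These are matches of letters, and methylation was not measured.

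Some of the 36 genes had a signal in every group. Gnas, which encodes the stimulatory G protein alpha subunit, lay between 12.42 and 13.21 on every array. Ube3a, the ubiquitin ligase lost in Angelman syndrome, lay between 10.29 and 11.06. Impact, an inhibitor of the GCN2 kinase, lay between 8.61 and 9.95, and Blcap, the host gene of Nnat, between 7.88 and 8.73. Other genes were well above background in some groups and near it in others. Group means spanned more than 2 log2 units in 16 of the 27 tested genes. Among these, Meg3, Mest, Plagl1 and Inpp5f had every group mean above 5.183. In 11 of the 27, every group mean was above 5.183. The shares of all tested genes were not worked out for these counts, and the filter kept genes that were high in at least 1 group.

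**Figure D1:**
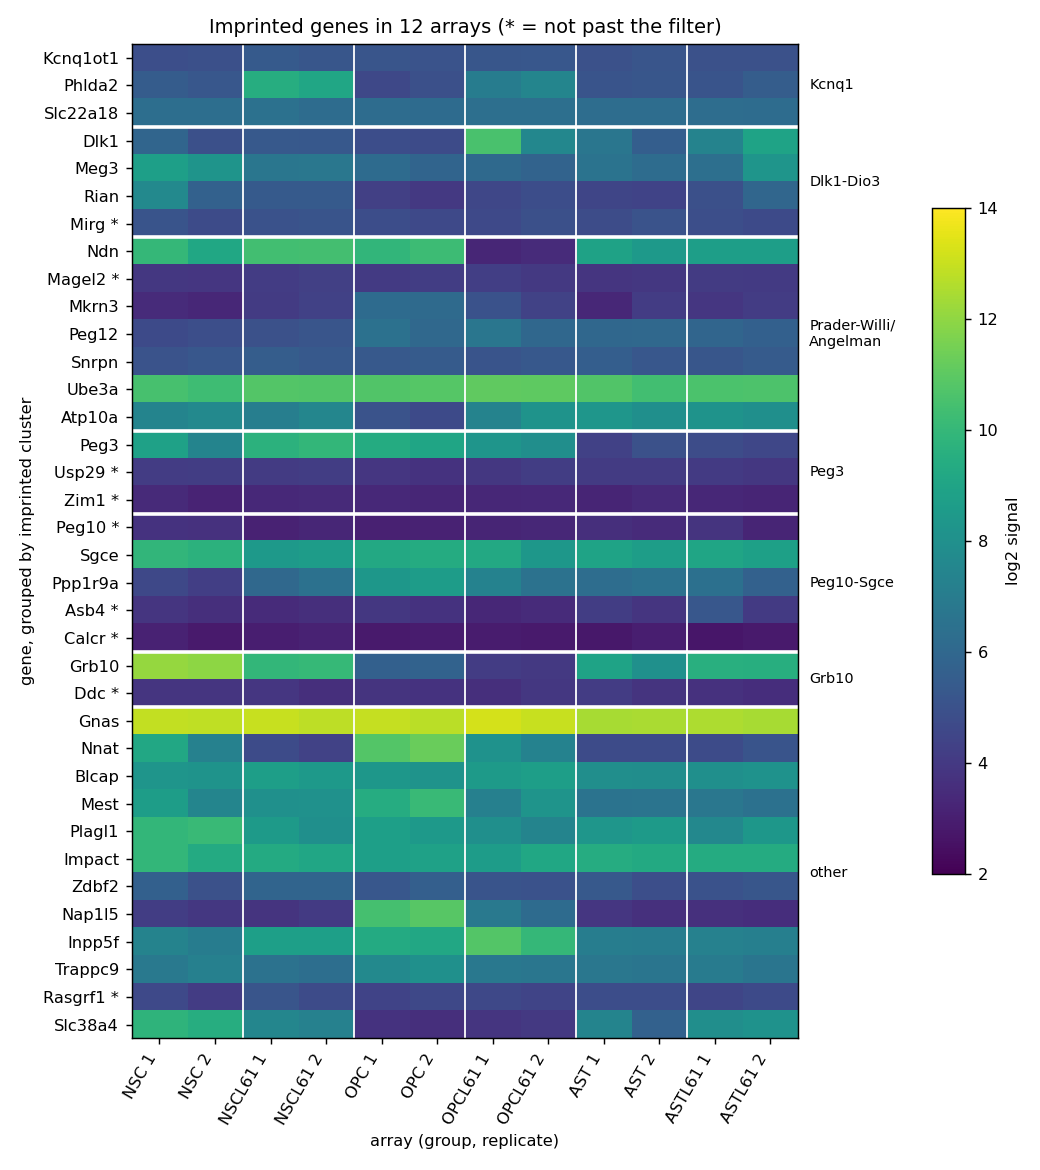
Log2 signal of the 36 imprinted genes with a probe set of their own (rows, grouped by imprinted cluster) on each of the 12 arrays (columns, white lines between groups). Gnas is bright on every array, Ndn is dark only on the OPCL61 arrays, and Nap1l5 is bright in OPC.

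The 9 genes that were not tested had no array above 5.26. They are Mirg, a noncoding RNA of the Dlk1-Dio3 cluster, Magel2, the neighbour of Ndn, Usp29 and Zim1 of the Peg3 cluster, Peg10, Asb4 and Calcr of the Peg10-Sgce cluster, Ddc, the neighbour of Grb10, and Rasgrf1, an activator of Ras proteins. Their signals ran from 2.74 to 5.26 over all arrays. Several of them lie beside a tested gene. Usp29, whose promoter window overlaps that of Peg3 in the opposite orientation, stayed between 3.75 and 4.20, while Peg3 signals ran from 4.34 to 9.93. Snrpn, which encodes a splicing protein, is represented by 1 probe set at 5.08 to 5.58, and 6 further probe sets assigned jointly to Snurf and Snrpn were not analysed here, so its level is uncertain.

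The first question was whether imprinted genes differ between each HRasL61 line and its parent. In NSCL61 against NSC, 8 of the 27 tested genes rose and 7 fell, where 20.7% and 17.1% of all genes did. Their median absolute difference was 0.60 on the log2 scale, against 0.33 over all genes. In OPCL61 against OPC, 5 rose and 10 fell, where 24.5% and 23.9% of all genes did, and the median absolute difference was 0.93 against 0.43. The signed medians were near 0 in both, 0.02 and -0.08, against 0.04 and 0.05 over all genes. In ASTL61 against AST no imprinted gene rose or fell at an adjusted p of 0.05 by limma, and 3 had an unadjusted p under 0.05, where 0.0234% of all genes rose and 0% fell. The median absolute difference was 0.13 there, as over all genes. By the copy that is usually active, 15 tested genes are paternally expressed, and in OPCL61 1 of them rose and 7 fell, with a median of -0.53. In NSCL61 4 of those 15 rose and 4 fell, with a median of -0.02. Of the 5 tested maternally expressed genes, 2 rose and 1 fell in NSCL61, and 1 rose and 1 fell in OPCL61.

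**Figure D2:**
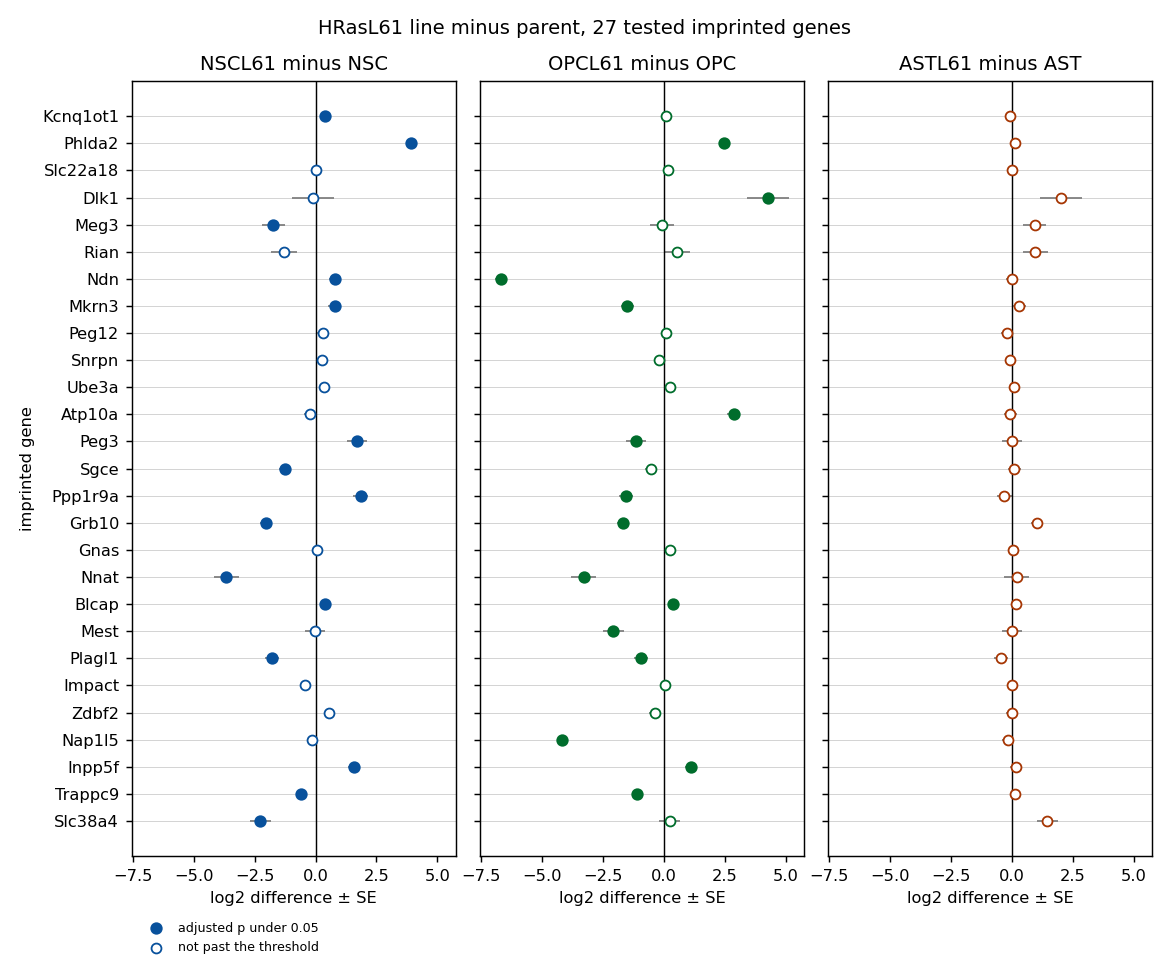
Log2 difference of each HRasL61 line from its parent (horizontal axis, with standard error bars from limma) for the 27 tested imprinted genes (rows), filled where the adjusted p was under 0.05. Ndn lies at -6.68 in the OPC line and at 0.80 in the NSC line, and no point is filled in the AST line.

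Ndn, the gene of the MAGE family protein necdin, which restrains division of neural precursors and protects neurons, showed the largest fall of the list. In OPC its signals were 9.89 and 10.23, and in OPCL61 they were 3.27 and 3.49. The difference was -6.68 ± 0.26 (SE, n = 2 arrays a group, adjusted p = 1.38e-07), a 103-fold lower signal, at which the 2 line arrays sat in the range of unexpressed genes. Every other group stayed high: 10.01 and 9.16 in NSC, 10.38 and 10.39 in NSCL61, 8.92 and 8.51 in AST, and 8.71 on both ASTL61 arrays. In NSCL61 it rose by 0.80 ± 0.26 (adjusted p = 0.0337), a small change against the fall in OPCL61. That rise was 1.23 without NSC array 1. It was not called without NSC array 2 (0.38, adjusted p = 0.223), without NSCL61 array 1 (adjusted p = 0.119) or without NSCL61 array 2 (adjusted p = 0.122).

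The array carries 8 probe sets for Ndn. Among them 5 were high in the other groups, and all 5 fell in OPCL61. In 4 of these the OPCL61 mean was 3.08 to 3.40, and in the fifth it was 5.62, a difference of -3.71. The other 3 probe sets lay in the range of background on every array of every group.

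**Figure D3:**
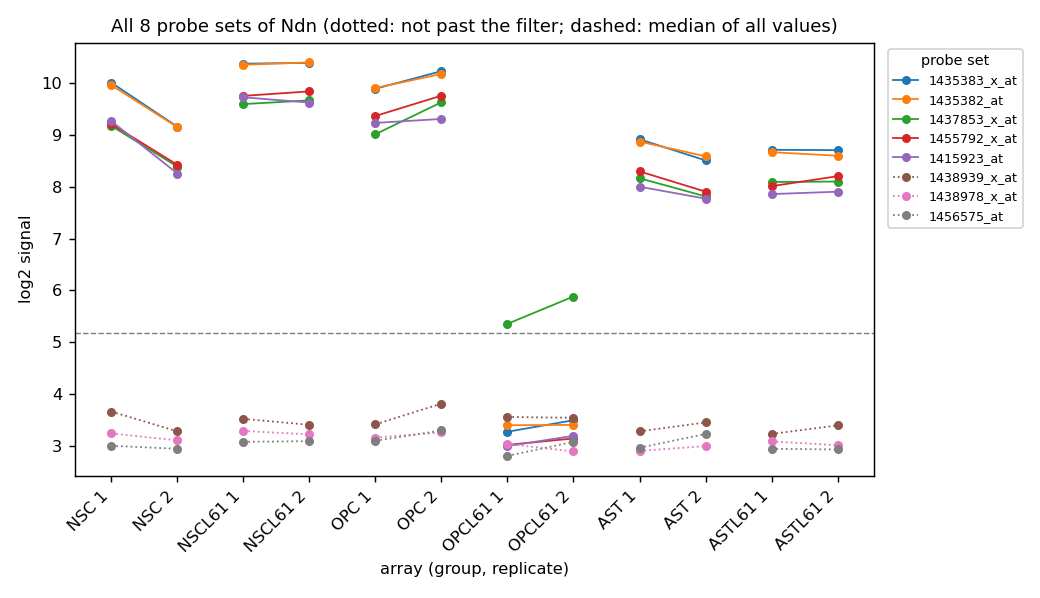
Log2 signal of the 8 Ndn probe sets (lines, by probe set) on the 12 arrays, with a dashed line at the median of all values, 5.183. The 5 solid lines are high in 5 groups and low in OPCL61, where 1 of them stops at 5.62, and the 3 dotted lines are low throughout.

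The genes beside Ndn on chromosome 7 did not share one course. Mkrn3, a makorin ubiquitin ligase known for holding back puberty, was 6.19 and 6.17 in OPC and 5.01 and 4.36 in OPCL61. It fell by 1.49 there (SE 0.27, adjusted p = 0.00156), from a low level to the range of background. Magel2 was between 3.84 and 4.28 on every array. Peg12, a FRAT family binder of GSK3, was 6.46 and 6.07 in OPC and 6.71 and 6.01 in OPCL61, where the arrays overlapped. Atp10a, a phospholipid flippase at the other end of the domain, went the other way. Its signals were 5.06 and 4.70 in OPC and 7.36 and 8.14 in OPCL61, a rise of 2.87 ± 0.26 (adjusted p = 2.35e-05). Its 2 other tested probe sets rose by 3.14 and 2.79. OPCL61 thereby came to the level of the other groups, in which Atp10a lay between 7.13 and 8.31. In NSCL61 Mkrn3 rose by 0.79 ± 0.27 (adjusted p = 0.0461), from 3.46 and 3.35 to 4.06 and 4.33, all below 5.183. Without either array of NSC or NSCL61 the adjusted p for that rise was between 0.0929 and 0.211.

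Ube3a and Snrpn were not called in any line by their representing probe set, with Ube3a at 0.37 or less above each parent. A second Ube3a probe set at 7.24 in OPC and 7.43 in NSC rose by 1.15 in OPCL61 and by 1.09 in NSCL61, with adjusted p of 0.000119 and 0.000272 in the fit of single probe sets. The other 2 tested probe sets moved by less than 0.45 in either direction and were not called, so the probe sets of Ube3a disagree.

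Nap1l5, a paternally expressed relative of nucleosome assembly proteins, was an OPC gene in this series. Its signals were 10.48 and 10.87 in OPC and between 3.59 and 4.19 on all arrays of NSC, NSCL61, AST and ASTL61. In OPCL61 they were 6.85 and 6.18, a difference of -4.16 ± 0.22 (adjusted p = 8.94e-07). The line thus kept a signal above the groups that lack the gene, 17.9-fold below its parent.

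Nnat, which encodes neuronatin, a small membrane protein of the developing brain, was high in OPC and in NSC. It was 10.79 and 11.25 in OPC and 8.14 and 7.34 in OPCL61, a difference of -3.28 ± 0.51 (adjusted p = 0.000647). In NSC its arrays read 9.18 and 7.27, a gap of 1.91, and in NSCL61 they read 4.73 and 4.39, a difference of -3.67 ± 0.51 (adjusted p = 0.000512). Both lines moved down, but NSCL61 ended near background and OPCL61 did not. In AST and ASTL61 the 4 arrays lay between 4.74 and 5.14. Blcap, in whose intron Nnat lies, rose slightly in both lines, by 0.41 ± 0.13 in NSCL61 (adjusted p = 0.0361) and by 0.37 ± 0.13 in OPCL61 (adjusted p = 0.0428). Neither small rise was called without some of the arrays: NSC array 1 or 2 or NSCL61 array 1 for the former (adjusted p 0.0809 to 0.240), and OPC array 2 or OPCL61 array 2 for the latter (0.223 and 0.211).

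Mest, a paternally expressed member of the hydrolase fold family, was 9.42 and 10.14 in OPC and 7.22 and 8.21 in OPCL61. It fell by 2.07 (SE 0.42, adjusted p = 0.00274). In the NSC line its arrays, 8.05 and 8.06, lay between those of NSC, 8.69 and 7.47. Plagl1, a zinc finger factor that arrests the cell cycle, fell in both lines. Its signals were 9.96 and 10.14 in NSC and 8.56 and 7.97 in NSCL61, a difference of -1.79 ± 0.30 (adjusted p = 0.00135). In OPC they were 8.78 and 8.45, and in OPCL61 7.97 and 7.41, a difference of -0.93 ± 0.30 (adjusted p = 0.0269). The fall in OPCL61 was not called without OPC array 1 (adjusted p = 0.141), OPC array 2 (0.0512) or OPCL61 array 2 (0.168).

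Beside these falls in OPCL61, the log2 of the summed linear signal of the OPC marker list went from 14.98 to 15.27 in OPC to 10.26 to 10.88 in OPCL61, with 8 of 10 markers still above 5.183. The part of this shift in cell identity markers in the results on Ndn, Nap1l5, Nnat and Mest was not tested.

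Peg3, a zinc finger protein of embryo and brain, moved in opposite directions. Its signals were 8.85 and 7.41 in NSC and 9.71 and 9.93 in NSCL61, a rise of 1.69 ± 0.40 (adjusted p = 0.00908). They were 9.37 and 9.04 in OPC and 8.24 and 7.91 in OPCL61, a difference of -1.13 ± 0.40 (adjusted p = 0.0423). Its 2 other tested probe sets rose by 1.98 and 1.96 in NSCL61 and differed by -1.17 and -1.15 in OPCL61, where their adjusted p was 0.062 in the fit of single probe sets. The rise was 0.97 without NSC array 2 (adjusted p = 0.0343). Without NSCL61 array 2 it had an adjusted p of 0.0573. Without either array of OPC or OPCL61 the fall had an adjusted p between 0.0694 and 0.175. AST and ASTL61 were near background, between 4.34 and 4.99.

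Ppp1r9a, which encodes the actin-binding scaffold neurabin-1, also rose in NSCL61 and fell in OPCL61. It was 4.58 and 4.24 in NSC and 6.05 and 6.47 in NSCL61, a rise of 1.85 ± 0.29 (adjusted p = 0.0011). It was 8.37 and 8.62 in OPC and 7.33 and 6.55 in OPCL61, a difference of -1.56 ± 0.29 (adjusted p = 0.00191). A second tested probe set gave 1.52 and -1.68. With Ndn and Mkrn3, these make the 4 genes called in opposite directions in the 2 lines. Mkrn3 is among them by a rise in NSCL61 that lies below 5.183 on every array, and it was tested because of its level in OPC. Sgce, the epsilon-sarcoglycan gene of the same cluster, was 9.91 and 9.71 in NSC and 8.44 and 8.65 in NSCL61, a difference of -1.26 ± 0.25 (adjusted p = 0.00387). In the OPC line it was 9.24 and 8.34 against 9.27 and 9.38, which was not called with both arrays and was called without OPCL61 array 1 (-0.98, adjusted p = 0.00259).

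Phlda2, a maternally expressed protein with a pleckstrin homology domain that limits placental growth, had the largest rise in NSCL61. It was 5.51 and 5.25 in NSC and 9.50 and 9.10 in NSCL61, a rise of 3.92 ± 0.22 (adjusted p = 2.07e-06), or 15.2-fold. In OPC it was 4.61 and 4.95, and in OPCL61 7.02 and 7.47, a rise of 2.47 ± 0.22 (adjusted p = 2.01e-05). The 4 arrays of AST and ASTL61 lay between 5.10 and 5.52. A gene near background in all 3 parents was thus well above it in 2 of the lines. Its neighbour Slc22a18, a transporter, lay between 6.18 and 6.47 on all arrays and was not called. Kcnq1ot1, the noncoding RNA that silences this cluster on the paternal chromosome, rose by 0.39 ± 0.12 in NSCL61 (adjusted p = 0.0241), from 4.87 and 4.95 to 5.38 and 5.22. That rise lies at the edge of background, and its adjusted p was 0.102 without NSC array 1, 0.0551 without NSC array 2 and 0.166 without NSCL61 array 1.

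Grb10, an adaptor that dampens insulin and insulin-like growth factor receptors, was lower in NSCL61 and OPCL61 than in their parents by its representing probe set. Its signals were 12.10 and 11.94 in NSC and 9.96 and 10.05 in NSCL61, a difference of -2.02 ± 0.24 (adjusted p = 0.000199). Its 2 other tested probe sets fell by 2.37 and 2.19. In OPC it was 5.68 and 5.79 and in OPCL61 4.11 and 3.98, a difference of -1.69 ± 0.24 (adjusted p = 0.00038). There the other probe sets read 0.24 and 0.02 higher and were not called, and the mean of the probe sets gave -0.48 with an adjusted p of 0.0538. The OPC result on Grb10 therefore rests on 1 probe set close to background. In AST it was 8.98 and 8.04 and in ASTL61 9.56 and 9.53, which was not called (1.03 ± 0.24, adjusted p = 0.32).

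Slc38a4, an amino acid transporter of system A, was 9.81 and 9.45 in NSC and 7.49 and 7.25 in NSCL61. It fell by 2.26 (SE 0.42, adjusted p = 0.00258), and its second tested probe set fell by 3.43. On the 4 arrays of OPC and OPCL61 it lay between 3.62 and 4.01. The AST arrays were 7.41 and 5.72, a gap of 1.69, and those of ASTL61 were 7.91 and 8.12, a difference of 1.45 ± 0.42 (adjusted p = 0.434) that was not called. Without AST array 1, Slc38a4 (2.30, adjusted p = 0.00599) and Grb10 (1.50, adjusted p = 0.00866) were called higher in ASTL61.

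Meg3, the maternally expressed noncoding RNA of the Dlk1-Dio3 cluster, was 8.75 and 8.20 in NSC and 6.73 and 6.76 in NSCL61, a difference of -1.73 ± 0.48 (adjusted p = 0.0191). It was not called without NSC array 1 (adjusted p = 0.0992), NSCL61 array 1 (0.0849) or NSCL61 array 2 (0.0774), although 4 other tested Meg3 probe sets fell by 0.65 to 2.53. The 4 remaining tested ones lay near 5.183 and were not called. Rian, the next noncoding RNA of the cluster, was 7.64 and 5.74 in NSC and 5.39 on both NSCL61 arrays. It was not called by its representing probe set (-1.30 ± 0.52, adjusted p = 0.0775), and was called without NSC array 2 (-2.25, adjusted p = 0.00175). Its other tested probe set fell by 2.19 (adjusted p = 0.0204 in the fit of single probe sets), and with the mean of the probe sets Rian was called (-1.74, adjusted p = 0.0355). Meg3 in ASTL61 was 6.38 and 8.28, a gap of 1.90, and only without ASTL61 array 1 was it called higher than AST (1.88, adjusted p = 0.0228).

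Grb10, Slc38a4 and Meg3 were higher in NSC than in NSCL61, and so was the marker list of fibroblasts and pericytes. The log2 of its summed linear signal was 15.26 to 15.36 in NSC, with 8 of 9 markers above 5.183, and 8.67 to 9.02 in NSCL61, with 2 of 9. It was 7.22 to 7.23 in OPC, 8.39 to 8.80 in OPCL61, 12.85 to 13.47 in AST and 13.78 to 13.84 in ASTL61. The part of such cells in the differences of these 3 genes was not tested.

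Dlk1, a membrane protein related to Notch ligands and a marker of precursor cells, had the largest rise in OPCL61 and the widest gap between arrays. It was 4.81 and 4.72 in OPC and 10.58 and 7.53 in OPCL61, a rise of 4.29 ± 0.87 (adjusted p = 0.00286) with a gap of 3.04 between the line arrays. Both were above every OPC array, so the direction is shared and the size is not settled. Without OPCL61 array 1 the rise was 2.77 (adjusted p = 0.00888). In ASTL61 it was 7.37 and 8.94 against 6.71 and 5.57 in AST, 2.01 ± 0.87 with an adjusted p of 0.667. In NSC and NSCL61 it lay between 4.95 and 5.91. Its partner gene Meg3 did not follow, at 6.18 and 5.89 in OPC and 6.10 and 5.81 in OPCL61. Rian was 4.27 and 4.01 in OPC and 4.56 and 4.83 in OPCL61, which was not called. These Rian signals all lay below 5.183, where a small change is hard to read.

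Inpp5f, an inositol phosphatase gene with an imprinted brain variant, rose in both lines. It was 7.35 and 7.03 in NSC and 8.77 on both NSCL61 arrays, a rise of 1.58 ± 0.23 (adjusted p = 0.000606). In OPC it was 9.36 and 9.17 and in OPCL61 10.79 and 9.98, a rise of 1.12 ± 0.23 (adjusted p = 0.0029), which was 0.71 without OPCL61 array 1. Its 2 other tested probe sets rose by 1.71 and 1.54 in NSCL61 and by 1.34 and 1.78 in OPCL61. Trappc9, a subunit of a vesicle tethering complex, fell in both, by 0.60 (SE 0.18, adjusted p = 0.0236) in NSCL61 and by 1.08 (SE 0.18, adjusted p = 0.000812) in OPCL61. In NSCL61 its adjusted p was 0.154 without NSC array 2, 0.0520 without NSCL61 array 1 and 0.147 without NSCL61 array 2. Together 11 genes were called in both lines: 3 rose in both, 4 fell in both and 4 were opposite, Mkrn3 among the last. Over all genes, 21.7% were called in both lines: 9.49% rose in both, 6.37% fell in both and 5.81% were opposite. A further 4 imprinted genes were called in NSCL61 and not in OPCL61, where 16.1% of all genes were, and 4 the other way round, where 26.8% were.

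Gnas was not called in any line by its representing probe set, which was 12.94 and 12.77 in OPC and 13.21 and 12.99 in OPCL61. A second probe set of the locus averaged 4.08 in OPC and 6.83 in OPCL61, a rise of 2.75 (adjusted p = 2.85e-07 in the fit of single probe sets). With the mean of the probe sets Gnas was called higher in OPCL61 (1.50, adjusted p = 9.84e-06). The locus has overlapping transcripts with separate promoters, and which of them this probe set reads was not tested. Impact and Zdbf2, a paternally expressed zinc finger gene, were not called in any line with all arrays. Impact was called lower in NSCL61 without NSC array 2 (-0.75, adjusted p = 0.0319), and Zdbf2 higher without NSC array 1 (0.90, adjusted p = 0.0135).

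**Figure D4:**
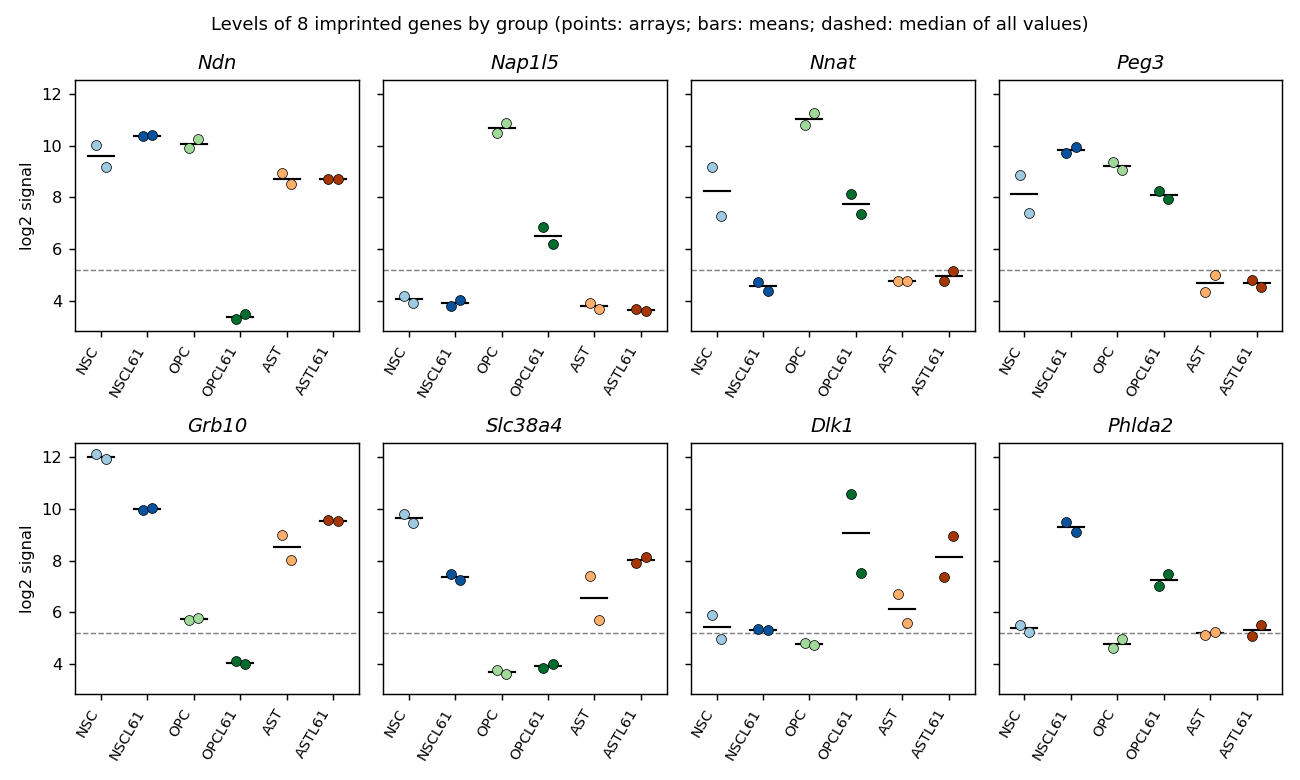
Log2 signal of 8 imprinted genes in the 6 groups (points are arrays, black bars are group means of 2 arrays, the dashed line is the median of all values, 5.183). Ndn drops below the dashed line in OPCL61 only, Nap1l5 is high in OPC and intermediate in OPCL61, and Phlda2 is above the line only in NSCL61 and OPCL61 by more than 1 unit.

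The differences between the changes were tested directly. Between the OPC and the NSC line, 10 of 27 genes differed in their change, where 37.9% of all genes did. Between the AST and the NSC line 10 did, where 25.3% of all genes did, and between the OPC and the AST line 11 did, where 35.4% of all genes did. The change of Ndn in the OPC line was below that in the NSC line (-7.48 ± 0.36, adjusted p = 9.14e-07) and below that in the AST line (-6.68 ± 0.36, adjusted p = 3.16e-06). For Nnat the falls in the OPC and NSC lines differed by 0.39 ± 0.73 (adjusted p = 0.712), which was not called, and both differed from the AST line, whose parent was already near background.

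The second question was how the imprinted genes differ between the parental cell types. In OPC against NSC, 9 of 27 genes were higher and 8 lower, where 27.2% and 24.3% of all genes were. In OPC against AST, 11 were higher and 3 lower, where 26.1% and 25.6% of all genes were. The calls for Gnas and Blcap, both higher in OPC, were lost without some of the arrays of OPC or AST. In AST against NSC, 2 were higher and 11 lower, where 15.4% and 15% of all genes were.

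Nap1l5 set OPC apart most, 6.62 ± 0.22 above NSC (adjusted p = 2.65e-08) and 6.88 ± 0.22 above AST (adjusted p = 2.67e-08). Nnat was 2.79 ± 0.51 higher in OPC than in NSC (adjusted p = 0.00147) and 6.28 ± 0.51 higher than in AST (adjusted p = 8.69e-06). Ppp1r9a was 4.09 ± 0.29 above NSC, Mkrn3 2.77 ± 0.27, Inpp5f 2.08 ± 0.23, Mest 1.71 ± 0.42, Peg12 1.48 ± 0.22 and Trappc9 0.79 ± 0.18. Of the 9 genes above NSC, 6 are paternally expressed, as are 15 of the 27 tested. Without NSC array 2 the difference of Nnat from NSC was 1.84. Mest was not called against NSC without NSC array 2 (1.10, adjusted p = 0.0511) or OPC array 2 (0.0616).

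Grb10 and Slc38a4 were the reverse. Grb10 was lower in OPC than in NSC (-6.29 ± 0.24, adjusted p = 5.69e-08), a 78.0-fold difference, and so was Slc38a4 (-5.95 ± 0.42, adjusted p = 2.91e-06). Both were also lower than in AST, Grb10 at -2.77 ± 0.24 and Slc38a4 at -2.88 ± 0.42. Atp10a was lower in OPC than in NSC (-2.64 ± 0.26) and than in AST (-3.26 ± 0.26). Meg3 (-2.44 ± 0.48), Rian (-2.55 ± 0.52) and Plagl1 (-1.43 ± 0.30) were lower than in NSC, and the difference of Rian was -1.60 without NSC array 1. Smaller differences of Phlda2, Impact and Peg3 between OPC and NSC were not called without some arrays: NSC array 1 or 2 or OPC array 1 for Phlda2 (adjusted p 0.0585 to 0.236), NSC array 1 or OPC array 1 for Impact (0.0857 and 0.0581), and NSC array 2 or OPC array 1 or 2 for Peg3 (0.0889 to 0.347). Without NSC array 1 the difference was -0.52 for Impact and 1.80 for Peg3, and without NSC array 2 it was 0.35 for Peg3.

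AST differed from NSC most in 4 genes, all lower. Peg3 was lower (-3.47 ± 0.40, adjusted p = 0.000354) and so was Nnat (-3.48 ± 0.51, adjusted p = 0.00122), both ending under 5.183. Grb10 (-3.51 ± 0.24) and Slc38a4 (-3.07 ± 0.42) were the others, and Plagl1 followed (-1.63 ± 0.30). Peg12 (1.24 ± 0.22) and Ppp1r9a (1.98 ± 0.29) were the 2 that were higher. The other 6 genes called lower, Meg3, Rian, Ndn, Sgce, Gnas and Mest, were each not called without at least 1 array of NSC or AST, with adjusted p from 0.0518 to 0.185. Without NSC array 1 the difference was -1.26 for Rian, -0.44 for Ndn and -0.88 for Mest. The count of 13 went down to 8 without NSC array 1 and to 7 without AST array 2.

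The lines were then set against each other. In OPCL61 against NSCL61, 5 were higher and 6 lower, where 13.3% and 13.4% of all genes were. Among them were Ndn (-7.01 ± 0.26, adjusted p = 1.53e-07), Grb10 (-5.96 ± 0.24), Dlk1 (3.73 ± 0.87, adjusted p = 0.0122, and 2.20 without OPCL61 array 1), Slc38a4 (-3.45 ± 0.42), Nnat (3.18 ± 0.51) and Nap1l5 (2.60 ± 0.22). The calls for Dlk1, Peg3 and Zdbf2 were each lost without at least 1 array of these lines, with adjusted p from 0.0504 to 0.127. In ASTL61 against NSCL61, 2 were higher and 8 lower, where 16.1% and 16.6% of all genes were. Peg3 was lower (-5.16 ± 0.40, adjusted p = 2.09e-05), as was Phlda2 (-3.99 ± 0.22), and Ndn (-1.67 ± 0.26) and Inpp5f (-1.54 ± 0.23) were lower too. The other 6 calls, Dlk1, Peg12, Gnas, Blcap, Mest and Zdbf2, were each lost without at least 1 array of the lines, with adjusted p from 0.0555 to 0.201, and the count of 10 went down to between 4 and 6. In OPCL61 against ASTL61, 9 were higher and 3 lower, where 18.9% and 17.7% of all genes were. The calls for Ube3a, Ppp1r9a and Blcap, all higher, were each lost without at least 1 array of these lines. The difference of Ppp1r9a was 0.47 without OPCL61 array 1 and 0.53 without ASTL61 array 2. Grb10 (-5.50 ± 0.24), Ndn (-5.33 ± 0.26) and Slc38a4 (-4.10 ± 0.42) were lower, and Peg3 (3.41 ± 0.40), Inpp5f (3.15 ± 0.23), Nap1l5 (2.88 ± 0.22) and Nnat (2.79 ± 0.51) led the higher genes.

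A further list held 35 other imprinted genes, of which 26 were tested. In NSCL61 6 rose and 5 fell, in OPCL61 5 rose and 6 fell, and in ASTL61 none was called by limma, with 2 at an unadjusted p under 0.05. Over all genes 20.7% rose and 17.1% fell in NSCL61, and 24.5% rose and 23.9% fell in OPCL61. Their median absolute difference was 0.46 in NSCL61 and 0.52 in OPCL61, against 0.33 and 0.43 over all genes. Dcn, the matrix proteoglycan decorin, fell by 3.02 in NSCL61 (SE 0.79, adjusted p = 0.0145). Igf2, the insulin-like growth factor, fell by 2.37 there (SE 0.76, adjusted p = 0.0349), with arrays far apart in NSC (8.26 ± 2.30, SD, n = 2). Pon3, a lactonase, fell by 2.34 in NSCL61 (SE 0.30, adjusted p = 0.000272). It went from 5.56 ± 0.79 in NSC, its only group mean above 5.183, to 3.22 ± 0.09, in the range of background. The fibroblast and pericyte markers were lower there as well, 7 of 8 tested, with a median of -6.80, and their part in these 3 falls was not tested. In OPCL61 Gatm, an enzyme of creatine synthesis, fell by 4.10 (SE 0.24) and Gab1, an adaptor of receptor tyrosine kinases, by 2.98 (SE 0.16). Kcnq1, a potassium channel gene in the cluster of Phlda2, rose by 1.51 ± 0.23 (adjusted p = 0.000544).

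Genes that set or keep imprints formed a list of 25, of which 20 were tested. In NSCL61 3 rose and 1 fell, in OPCL61 2 rose and 7 fell, and in ASTL61 none was called by limma, with 2 at an unadjusted p under 0.05. Of all genes 20.7% and 17.1% did so in NSCL61, and 24.5% and 23.9% in OPCL61. The median absolute difference of the list was 0.19 in NSCL61 and 0.43 in OPCL61, against 0.33 and 0.43 over all genes. Dnmt1, the maintenance methyltransferase, was 9.48 ± 0.03 (SD, n = 2) in NSC and 10.10 ± 0.07 in NSCL61, a rise of 0.61 ± 0.18 (adjusted p = 0.023). Ezh2, the Polycomb methyltransferase, rose there by 1.36 ± 0.23, and its partner Eed by 0.57 ± 0.17. Tet1, which oxidises methylcytosine, fell by 0.76 (SE 0.16) in NSCL61 and by 2.27 (SE 0.16) in OPCL61, where it went from 7.60 ± 0.18 to 5.33 ± 0.11. Tet2 fell by 1.18 (SE 0.13) and the heterochromatin protein gene Cbx5 by 1.51 (SE 0.16) in OPCL61. Ctcf, the insulator protein, fell by 0.60 there (SE 0.10), from 10.41 ± 0.03 to 9.81 ± 0.03. Zfp57, which protects imprints in the early embryo, rose there by 0.80 ± 0.13, from 4.50 ± 0.02 to 5.30 ± 0.12, close to the 5.183 level. Dnmt3a (-0.49, adjusted p = 0.0555), Dnmt3b (-0.18, adjusted p = 0.383), Uhrf1 (-0.38, adjusted p = 0.173) and Trim28 (0.05, adjusted p = 0.775) were not called in OPCL61. These genes and the 27 imprinted genes were measured on the same arrays, and no relation between them was tested.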

How the data were processed

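RNA from 12 samples was labelled with biotin and hybridised to expression arrays, per the labels' protocols. The authors deposited 1 log2 signal for each probe set and array. How they corrected background, summarised probes and normalised arrays is not given in the sources used here. These values were used unchanged. Gene names came from the platform's table of probe sets, of which 34958 carry a single symbol and 932 carry several. Probe sets with several symbols or none, and 64 controls, were left out. Of those with 1 symbol, 34754 had an Entrez identifier found in a RefSeq gene table of GRCm38.p6, and 0 symbols changed.

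Groups were taken from the sample titles. All 12 arrays entered one limma fit (version 3.58.1, R 4.3.3) with a mean for each of the 6 groups, after reading with data.table, version 1.17.8. This left 6 residual degrees of freedom, or 9.30 after moderation. Contrasts were tested 2-sided with Benjamini-Hochberg adjustment over 12835 genes at a threshold of 0.05, and a gene past it is said to be called. SE is the moderated standard error. The steps were tested on simulated data. Promoter windows were searched on both strands for TGCCGC, GGGGGCCCC and CCGCG. No window was searched for in a genome sequence.

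The imprinted genes and the other lists were chosen with earlier results of these data known. The text names all 39 listed genes and, from the lists of other imprinted genes and of genes that keep imprints, the 3 called genes with the largest change in each line, plus Dnmt1, Dnmt3a, Dnmt3b, Uhrf1, Trim28, Zfp57 and Ctcf. Eed was named beside them after its values were seen. Alternatives were other normalisations, filters, probe set rules, priors, a replicate block, a model of the compared arrays, a log2 change of at least 1, leaving out each array, and, added after seeing the data, a test of each probe set by itself.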

Additional observations from a re-analysis of the deposited data

Results flagged for a closer look

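The results below were picked because the change from parent to line differed between cell types by a direct test in limma (adjusted p under 0.05 over all genes tested). Each value is the log2 change in one line minus that in another, and no explanation was tested.

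For the OPC line minus the NSC line the change was lower for Ndn (-7.48), Nap1l5 (-4.02), the scaffold gene Ppp1r9a (-3.41), Peg3 (-2.82), Mkrn3 (-2.28), Mest (-2.05) and Phlda2 (-1.45). Phlda2 rose in both lines, and less in OPCL61. The change was higher for the transporter gene Slc38a4 (2.50), for Atp10a (3.08) and for Dlk1 (4.39). Slc38a4 had group means of 3.69 in OPC and 3.92 in OPCL61, both below 5.183, so a fall there could not be seen. The same holds for Nap1l5 in NSC and NSCL61, at 4.06 and 3.91, and for Mkrn3 in those 2 groups. Of these 10 differences 8 kept their call without each array in turn. Dlk1 did not without NSC array 1, either NSCL61 array or OPC array 2 (adjusted p 0.0547 to 0.0603), and was 2.87 without OPCL61 array 1, and Mest did not without NSC array 2, either NSCL61 array, OPC array 2 or OPCL61 array 1 (0.0580 to 0.0831).

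For the AST line minus the NSC line the change was lower for Phlda2 (-3.79), Ppp1r9a (-2.16) and Inpp5f (-1.42), which were called in NSCL61 and not in ASTL61. It was higher for Plagl1 (1.34), Sgce (1.36), Rian (2.26), Meg3 (2.66), Grb10 (3.05), Slc38a4 (3.72) and Nnat (3.87). Nnat had group means below 5.183 in AST and ASTL61, where a fall could not be seen. Here 6 of 10 kept their call without each array. Plagl1 and Rian were each lost under 6 of the 8 arrays left out (adjusted p 0.0667 to 0.149 and 0.0685 to 0.147), and Rian was 1.31 without NSC array 1. Meg3 was lost without NSC array 1, either NSCL61 array or AST array 2 (0.0568 to 0.0719) and was 1.71 without ASTL61 array 2, and Sgce was lost without NSC array 1, NSCL61 array 1, AST array 2 or ASTL61 array 1 (0.0592 to 0.0836).

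For the OPC line minus the AST line the change was lower for Ndn (-6.68), Nap1l5 (-3.99), Nnat (-3.48), Grb10 (-2.72), Mest (-2.07), Mkrn3 (-1.78), Ppp1r9a (-1.25) and Trappc9 (-1.20). It was higher for Inpp5f (0.96), Phlda2 (2.34) and Atp10a (2.94). Nap1l5, Nnat and Mkrn3 had group means below 5.183 in AST and ASTL61, where a fall could not be seen. Here 8 of 11 kept their call without each array. Grb10 is among the 8, but its fall in OPCL61 rests on 1 probe set close to background, and its other tested probe sets did not fall there. Mest was lost without OPC array 2, OPCL61 array 1, either AST array or ASTL61 array 1 (adjusted p 0.0616 to 0.0869). Ppp1r9a was lost without either OPC array, OPCL61 array 2, either AST array or ASTL61 array 1 (0.0660 to 0.135), and Inpp5f without any array but OPCL61 array 2 (0.0681 to 0.129). The value for Inpp5f was 0.55 without OPCL61 array 1.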

How the results depend on the processing

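No called difference of an imprinted gene changed direction in any setting. Of the 30 called differences between a line and its parent, 19 kept their call in every setting but the demand for a log2 change of at least 1, and 20 kept it without each array in turn. The 19 were judged only by the settings that tested them. Mkrn3 in OPCL61 is among them, and it was not tested under the filter at the 75th percentile or on the mean over 12 arrays. Quantile normalisation, median centring and a trended robust prior lost none, nor did a filter at the 75th percentile among the 27 it tested. The arrays compared fitted by themselves lost 4, and the mean of probe sets lost 2, Kcnq1ot1 in NSCL61 and Grb10 in OPCL61. A replicate block gave 14 calls in NSCL61 and 14 in OPCL61, losing Mkrn3 (0.79, adjusted p = 0.0582) and Blcap (0.37, adjusted p = 0.0562). The replicate numbers were not found to pair samples, with correlations of replicate differences between groups from -0.196 to 0.105. The ribosomal RNA control was lower on array 1 than on array 2 in NSC, NSCL61, OPC and AST, and higher in OPCL61 and ASTL61. Whether this reflects a step shared by replicate number was not tested. Of 51 uncalled differences, 8 were called in some setting.

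Without each array in turn the number of imprinted genes called ran from 9 to 12 of 15 for NSCL61 against NSC, from 0 to 2 for ASTL61 against AST, from 7 to 12 of 13 for AST against NSC, from 4 to 6 of 10 for ASTL61 against NSCL61 and from 6 to 10 for the AST change against the NSC change. These numbers include genes called only with an array left out, so they are not all survivors of the calls with all arrays. For NSCL61 against NSC such genes were Zdbf2 without NSC array 1, and Rian and Impact without NSC array 2. A log2 change of at least 1 left 6 of 10 for ASTL61 against NSCL61. A left-out array leaves 1 array in its group, which is then assumed to vary like the others. Signals below the median of all values limit what can be said of low genes.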
